A study of Mus musculus with 11 samples.

Results

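The chemokine system of sorted mouse epidermal cells is described here as the 64 protein-coding genes, of 55536 genes in the count tables, whose Ensembl 96 symbol is Ccl, Cxcl, Ccr, Cxcr or Ackr followed by a number, together with Cx3cl1 and Cx3cr1. They comprised 43 ligand genes, 17 signalling receptors and 4 atypical receptors, and several ligand genes of chromosome 4 were annotated more than once, so that 59 distinct symbols remained. The members were then separated by level. In 31 of them the mean of at least 1 group reached 5 CPM (counts per 1000000, after correction of library sizes by TMM), and in 33 it did not. The 31 expressed members were 19 ligands, 8 receptors and all 4 atypical receptors. Ccl4 lay just inside this limit, with a highest group mean of 5.01 CPM, and Ccl20 just outside, with 4.79 CPM.

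Chemokines are small secreted proteins that direct the migration of cells along concentration gradients, and most bind to sulphated sugars of the matrix near their source. The C-C and C-X-C ligands act through receptors coupled to inhibitory G proteins, whereas the atypical receptors bind chemokines without this signal and take them up or carry them across a cell. In skin, keratinocytes constantly secrete some chemokines, such as Cxcl14 and Ccl27a, and add inflammatory ones upon injury or cytokine exposure. Resident T cells and Langerhans cells of the epidermis carry receptors for them.

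All 11 libraries came from back skin epidermis of male mice on a C57Bl6/N background that carried CD4Cre R26-tdT, a Cre recombinase driven by Cd4 control elements together with a Cre-dependent tdTomato (tdT) reporter. There was no group without Cre, so the comparisons concern cells with and without tdT from mice of 1 genotype. Whether libraries of the same number came from the same mice is not stated outright in the sources used here. Cells positive for the integrin CD49f and for CD34 were sorted into SCA-1 negative cells, named CD49f+CD34+ below, and into CD49f+CD34+SCA-1+ cells. Both were sorted with (tdT+) and without (tdTneg) the reporter. The paper takes the SCA-1 negative cells as bulge cells of the hair follicle. It describes the SCA-1+ cells as more likely basal and suprabasal cells of the interfollicular epidermis (IFE). Each library was made from material of 2 mice, aged 29 weeks in replicate 1 and 32 weeks in replicates 2 and 3, and there were 3 libraries per group except for tdTneg CD49f+CD34+SCA-1+ cells with 2. As Cre driven by Cd4 is also active in T cells and as tdT marks past Cre activity, a tdT+ gate does not show present Cd4 expression. The p-values below measure the spread between libraries of pooled mice.

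Depth was 17409131 to 46542177 counts per library, and 34 to 52 members had at least 1 count in a library. Ly6a, which encodes SCA-1, was at 2.46 to 59.2 CPM in the CD49f+CD34+ libraries and at 153 to 294 CPM in the CD49f+CD34+SCA-1+ libraries, so it followed the gate. Cd34 went the other way, with 468 to 1130 CPM in CD49f+CD34+ cells, 22.3 to 35.7 CPM in tdT+ and 320 and 383 CPM in tdTneg CD49f+CD34+SCA-1+ cells. The row that lies outside the Ensembl genes held 133 to 307 CPM in 5 of 6 tdT+ libraries and 2.54 to 4.89 in the tdTneg libraries. It held 2.05 in the second tdT+CD49f+CD34+ library, which is therefore named by its label (tdT+CD49f+CD34+ replicate 2), and the calls of members that its omission added are given.

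Reads of other cell types differed between the groups. The 10 T cell markers summed to 29.3 to 58.1 CPM in tdT+ and 13.0 to 14.6 CPM in tdTneg CD49f+CD34+ cells, and to 269 to 818 and 72.2 to 78.2 CPM in the respective CD49f+CD34+SCA-1+ cells. The 6 endothelial markers reached 1676 and 1789 CPM in the tdTneg CD49f+CD34+SCA-1+ libraries, 441 CPM in the second tdT+CD49f+CD34+ library as labelled and 5.12 to 100 CPM in the others. Macrophage and mast cell markers (8 genes) varied within groups, from 2.81 to 373 CPM in tdT+ and 2.10 to 101 CPM in tdTneg CD49f+CD34+ cells, and from 47.5 to 183 CPM and 84.7 to 763 CPM in the SCA-1+ groups. The 6 Langerhans cell markers summed to 71.7 to 352 CPM in tdT+ and 17.1 to 76.4 CPM in tdTneg CD49f+CD34+ cells, and to 271 to 411 CPM and 647 and 689 CPM in the SCA-1+ groups. Of them 5 (Cd207, Cd74, H2-Aa, H2-Ab1 and H2-Eb1) rose between the populations, averaged over tdT status, and 4 did within tdTneg cells, whereas within tdT+ cells edgeR and DESeq2 called 0, with 0 at an unadjusted p under 0.05. The 7 leukocyte markers summed to 67.3 to 171 CPM and 8.54 to 53.05 CPM in tdT+ and tdTneg CD49f+CD34+ cells, and to 364 to 675 CPM and 135 to 295 CPM in the SCA-1+ groups. All 7 rose between the populations as the mean, 3 within tdTneg and 1 within tdT+ cells. DESeq2 called 7 within tdTneg and 4 within tdT+ cells, and by edgeR all 7 had an unadjusted p under 0.05 in both. Genes of both lists rose in the comparisons in which Cxcl2, Ccl3, Ccl4, Ccl5 and Ccl20 were called, and their part in those values was not tested. The mast cell genes Cma1 and Mcpt4 did not exceed 0.826 CPM in any library. Of 6 IFE basal and 6 IFE suprabasal markers, 3 (with Ly6a) and 4 rose between the populations as the mean. The suprabasal ones summed to 1836 to 4239 CPM in tdT+ and 791 to 1888 CPM in tdTneg CD49f+CD34+ cells. In the SCA-1+ groups they summed to 7686 to 10215 CPM and 3340 and 6994 CPM. The part of both lists in the values of members such as Ackr2, Ackr3 and Ccl20 was not tested. Fewer cells of a type and less RNA per cell cannot be told apart in such bulk samples.

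**Figure D1:**
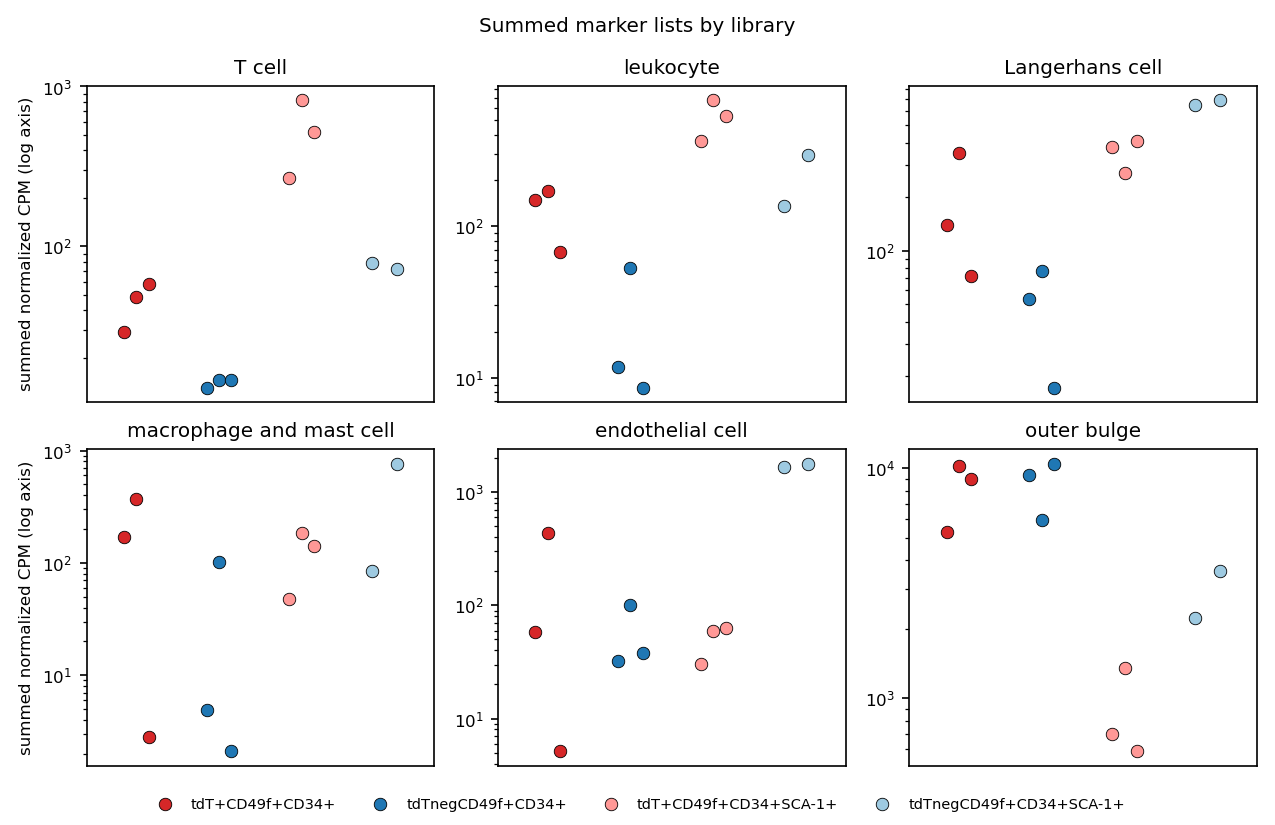
Summed normalized CPM (log axis) of 6 marker lists, 1 point per library, with the 4 groups as colours. T cell markers are highest in the 3 tdT+CD49f+CD34+SCA-1+ libraries (269 to 818 CPM), endothelial markers in the 2 tdTnegCD49f+CD34+SCA-1+ libraries, and outer bulge markers in the 6 CD49f+CD34+ libraries.

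The first question was which chemokines and receptors differed between the populations. In CD49f+CD34+SCA-1+ cells, taken as the mean over tdT status, the ligands Cxcl14 and Cxcl12 fell 4.48-fold and 2.55-fold against CD49f+CD34+ cells. Members of 3 kinds rose, namely the inflammatory ligands Cxcl2, Ccl20, Ccl4 and Ccl5, the lymphocyte receptors Cxcr6, Ccr4 and Ccr8, and the atypical receptors Ackr2 and Ackr3. This makes 11 of 45 tested members, 9 higher and 2 lower, at an adjusted p under 0.05 and a log2 fold change beyond 1 (edgeR quasi-likelihood test, Benjamini-Hochberg adjustment over 20307 genes). Below, called refers to this test, with its filter on low counts and all 11 libraries, unless another tool or setting is named. Of all tested genes 11.6% were called in this comparison, 4.77% higher and 6.79% lower. The median log2 fold change was 1.70 over the tested members and −0.09 over all tested genes. The libraries of the populations did not overlap in 4 of the 45, namely Ackr3 and Ccl5 on the higher and Cxcl14 and Cxcl12 on the lower side, against 10.8% of all tested genes. All 31 expressed members and 14 of the others passed the filter on low counts, and 19 members did not and were not tested. A member can pass it through the group in which it is high. DESeq2 called 21 members here, against 16.3% of all tested genes. These were the 11 and Ccl2, Ccl3, Ccl7, Ccl8, Ccl11, Cxcl10, Ccr1, Ccr7, Cx3cr1 and Cxcr3. Without tdT+CD49f+CD34+ replicate 2 edgeR called 15, with Ackr1, Ccl3, Ccl8 and Cx3cr1 added. The share over all genes is not given for that fit.

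**Figure D2:**
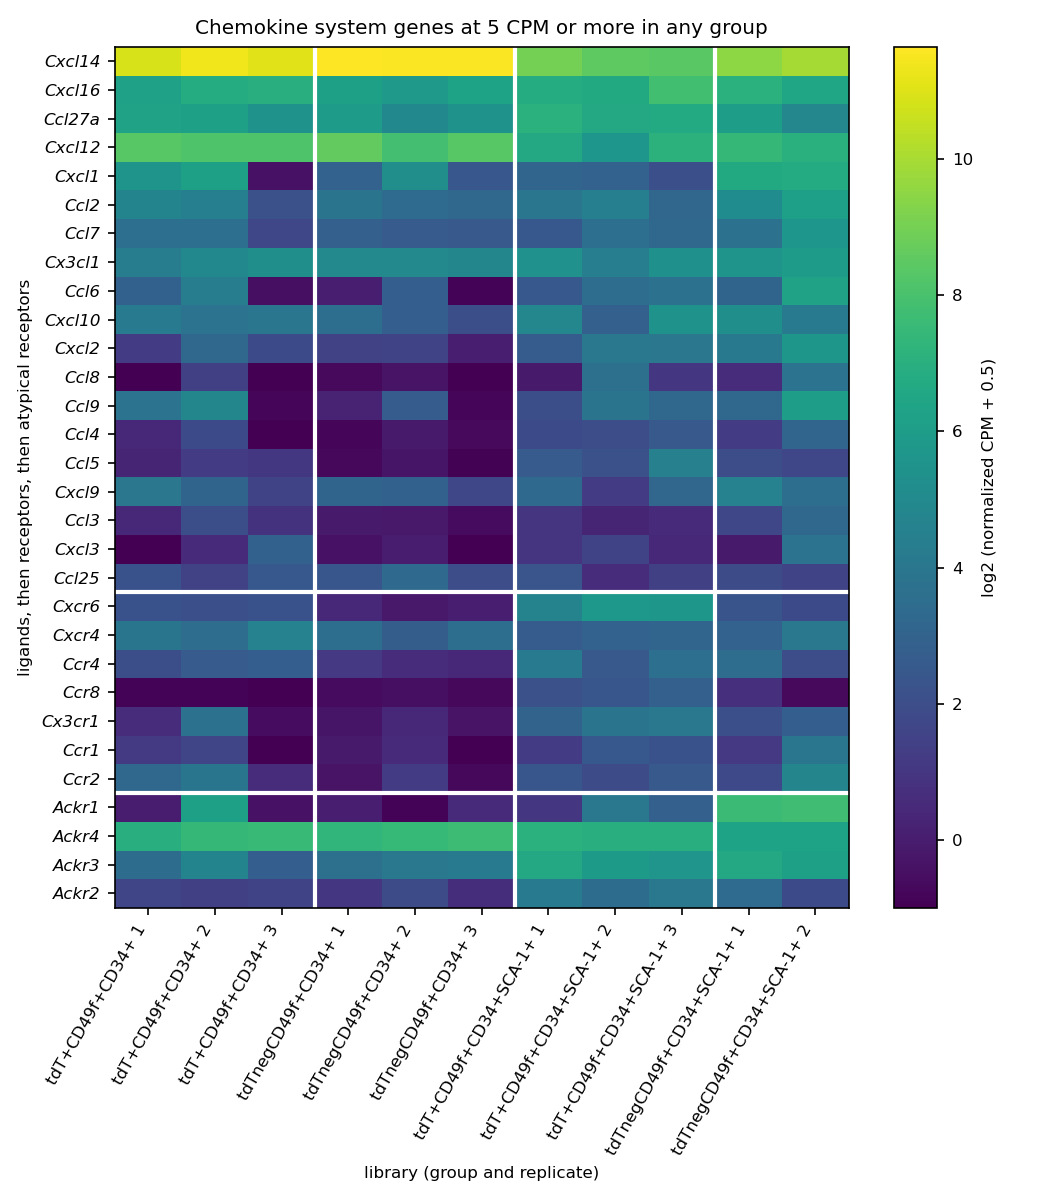
Level of 30 of the 31 members at 5 CPM or more in any group, as log2 of normalized CPM + 0.5, with members in rows (ligands, receptors, atypical receptors, separated by white lines, each ordered by level per kilobase) and the 11 libraries in columns. Cxcl14 is highest in every library, and several rows, such as Cxcl1, Ccl6, Ccl9, Ccr2 and Ackr1, differ between libraries of the same group.

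Levels between genes were compared per kilobase of exon. Cxcl14 led in each of the 4 groups, with a mean over groups of 905 CPM per kilobase. Cxcl16, Ccl27a, Cxcl12 and Ackr4 had means of 35.8, 28.4, 26.5 and 25.5 CPM per kilobase. The mean of Ackr1, 43.0, came from tdTneg CD49f+CD34+SCA-1+ cells with 149 CPM per kilobase, against 17.1 and 0.366 in tdT+ and tdTneg CD49f+CD34+ cells and 5.901 in tdT+ CD49f+CD34+SCA-1+ cells. Among the signalling receptors Cxcr6 was highest in tdT+ CD49f+CD34+SCA-1+ cells, with 22.2 against 3.93 CPM per kilobase for Cxcr4. In the other groups Cxcr4 was highest, with 9.16, 5.35 and 6.61 against 2.05, 0.312 and 1.93 for Cxcr6. The members lie mostly in clusters, with 14 on chromosome 11, 12 on chromosome 9 and 10 on chromosome 5, of which 9, 9 and 5 were expressed. Ackr1 shares 25.7% of its exon bases with Cadm3 on the same strand, Cxcl16 shares 18.3% with Zmynd15 on the opposite strand and Ackr4 8.90% with Acad11. The kit did not mark strand, so reads of such shared bases cannot be assigned with certainty.

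Cxcl14 (ENSMUSG00000021508, chr13:56288643-56296551 on the minus strand), a ligand that keratinocytes secrete in normal skin, stood at 1914, 2690 and 2173 CPM in tdT+ and 3218, 3014 and 3053 CPM in tdTneg CD49f+CD34+ cells, and 514, 369.6 and 344 CPM in tdT+ and 713 and 989 CPM in tdTneg CD49f+CD34+SCA-1+ cells. No library of 1 population reached the range of the other. The log2 fold change of CD49f+CD34+SCA-1+ over CD49f+CD34+ cells was −2.16 ± 0.18 (SE, adjusted p = 0.000131) as the mean over tdT status, −2.46 ± 0.23 (SE, adjusted p = 0.000351) within tdT+ and −1.86 ± 0.27 (SE, adjusted p = 0.00721) within tdTneg cells. It was also lower in each tdT+ library than in each tdTneg library of the same population, but neither difference was called, with a log2 fold change of −0.45 ± 0.22 (SE, adjusted p = 0.617) in CD49f+CD34+ and −1.06 ± 0.24 (SE, adjusted p = 0.0542) in CD49f+CD34+SCA-1+ cells. This second difference was called under 5 alternatives, at −1.05 to −1.12, with adjusted p of 2.5e-05 by DESeq2 and, by edgeR, 0.038 with RLE size factors, 0.00597 without a filter on low counts, 0.0405 with a stricter filter and 0.0369 with only the groups compared. Without the library tdTnegCD49f+CD34+SCA-1+ replicate 1 the call within tdTneg cells was lost, with a log2 fold change of −1.66 and an adjusted p of 0.0926. Cxcl14 made up 74.4 to 87.2% of all ligand CPM in the CD49f+CD34+ libraries and 34.04 to 54.2% in the CD49f+CD34+SCA-1+ libraries.

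Cxcl12 (ENSMUSG00000061353, chr6:117168535-117181367 on the plus strand), the ligand of Cxcr4 and Ackr3 that retains stem and immune cells in niches, was at 328, 292 and 291 CPM in tdT+ and 387, 232 and 325 CPM in tdTneg CD49f+CD34+ cells, and 99.4, 48.8 and 140.2 CPM in tdT+ and 174 and 132 CPM in tdTneg CD49f+CD34+SCA-1+ cells. Here too the populations were separate. Its log2 fold change was −1.35 ± 0.26 (SE, adjusted p = 0.00567) as the mean and −1.66 ± 0.34 (SE, adjusted p = 0.0119) within tdT+ cells, both called, and −1.04 ± 0.38 (SE, adjusted p = 0.151) within tdTneg cells, which was not. All 6 outer bulge markers fell in the same comparison, with sums of 5292 to 10210 CPM in tdT+ and 5955 to 10481 CPM in tdTneg CD49f+CD34+ cells against 587 to 1353 and 2235 to 3561 CPM in the SCA-1+ groups. Their part in the values of Cxcl14 and Cxcl12 was not tested. Among CD49f+CD34+SCA-1+ cells, outer bulge markers and Cxcl14 were both lower in the tdT+ libraries. Among CD49f+CD34+ cells Cxcl14 was also lower in each tdT+ library, whereas the outer bulge sums overlapped and edgeR called 0 of the 6 markers.

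**Figure D3:**
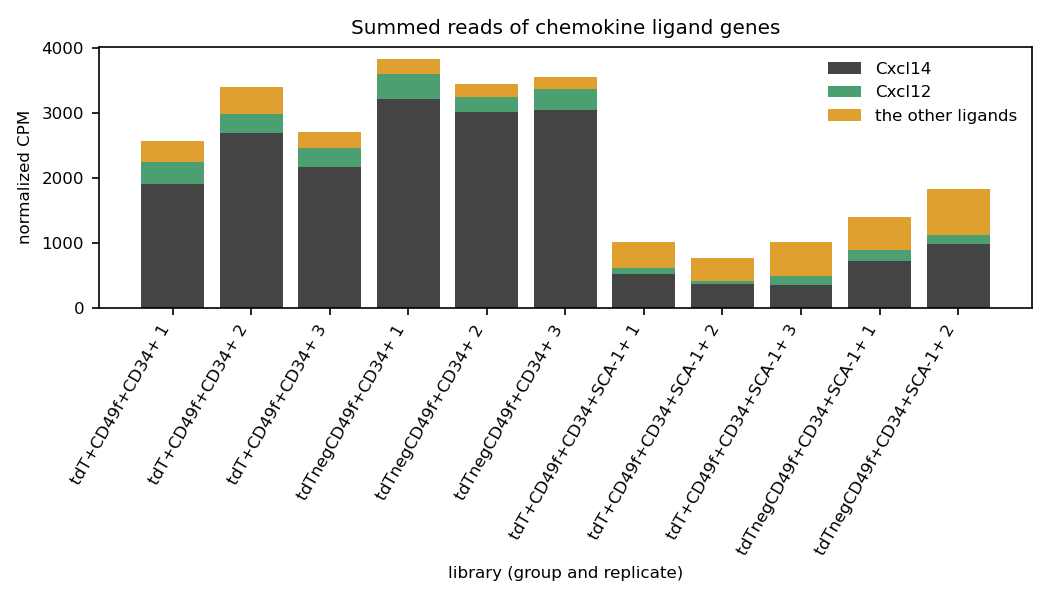
Summed normalized CPM of the ligand genes in each of the 11 libraries as stacked bars that start at 0. Cxcl14 fills most of each CD49f+CD34+ bar (74.4 to 87.2%) and a smaller part of each CD49f+CD34+SCA-1+ bar (34.04 to 54.2%), while the sum of the other ligands with Cxcl12 stays between 395 and 837 CPM.

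For 4 of the 6 ligands called between the populations a RefSeq promoter was at hand, and these are printed to show the sequence before 2 genes that fell and 2 that rose. Each line holds the 250 bases before the RefSeq transcription start on the gene's own strand, 5′ to 3′, from GRCm38.p6. For Cxcl2 this start lies inside the gene as Ensembl places it, and so does the end of its line. Capitals mark matches, on either strand, to the NF-kB consensus in Ccl20 and Cxcl2 and to the core of the interferon-stimulated response element (ISRE) in Cxcl14.
Cxcl14, chr13:56296552-56296801: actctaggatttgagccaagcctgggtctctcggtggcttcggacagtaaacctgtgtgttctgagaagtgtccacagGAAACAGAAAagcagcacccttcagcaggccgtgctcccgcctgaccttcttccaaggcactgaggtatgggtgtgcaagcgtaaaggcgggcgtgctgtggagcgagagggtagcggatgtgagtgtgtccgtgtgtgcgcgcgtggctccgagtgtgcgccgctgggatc
Cxcl12, chr6:117168285-117168534: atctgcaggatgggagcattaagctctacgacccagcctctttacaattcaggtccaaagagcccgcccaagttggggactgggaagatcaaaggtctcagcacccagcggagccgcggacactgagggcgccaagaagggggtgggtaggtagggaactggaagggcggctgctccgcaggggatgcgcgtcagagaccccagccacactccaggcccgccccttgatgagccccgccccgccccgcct
Cxcl2, chr5:90903649-90903898: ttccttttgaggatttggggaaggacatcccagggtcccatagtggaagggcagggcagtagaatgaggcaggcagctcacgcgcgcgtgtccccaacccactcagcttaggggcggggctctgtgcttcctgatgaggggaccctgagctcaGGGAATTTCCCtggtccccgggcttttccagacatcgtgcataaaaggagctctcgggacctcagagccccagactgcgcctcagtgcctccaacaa
Ccl20, chr1:83116516-83116765: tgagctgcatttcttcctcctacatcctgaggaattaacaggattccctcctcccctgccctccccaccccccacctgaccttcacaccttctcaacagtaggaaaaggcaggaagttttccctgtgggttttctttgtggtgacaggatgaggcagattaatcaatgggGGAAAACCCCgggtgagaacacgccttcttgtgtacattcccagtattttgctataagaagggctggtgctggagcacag
The promoters were searched for 4 motifs on both strands of 300 bases, from 250 before to 50 after the start, namely the NF-kB consensus, the ISRE core, TATAAA and TGANTCA, the last being a site of AP-1. The ISRE core was searched as TTTC, then NN, then TTTC again. Matches of different motifs may overlap, and 2 overlapping NF-kB matches in Cxcl2 count as 1 promoter. The NF-kB consensus was found in 8.46% of 32851 promoters, or for 9.55% of 27025 genes, and for 12 of 43 members with a promoter. Among expressed members these were Ackr2, Ccl27a, Ccl9, Ccr1, Cxcl1, Cxcl10, Cxcl2 and Cxcl3. TATAAA was found for 13 of the 43 members and 15.7% of all genes, the ISRE core for 3 and 3.99%, and TGANTCA for 8 and 8.97%. A match is a description of letters and not a bound site. RefSeq entries for Ccl4 and Ccl5 were not used here.

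Cxcl16, Ccl27a, Cx3cl1 and Ccl25 complete the ligands known from resting epithelia, and none of them was called by edgeR in any comparison. Cxcl16, the membrane-bound ligand of Cxcr6, was at 76.05, 113 and 121 CPM in tdT+ and 72.1, 55.6 and 79.1 CPM in tdTneg CD49f+CD34+ cells, and 115, 104 and 226 CPM in tdT+ and 134 and 90.2 CPM in tdTneg CD49f+CD34+SCA-1+ cells. Ccl27a, which attracts skin-homing T cells through Ccr10, reached 77.2, 71.4 and 45.3 CPM in tdT+ and 64.01, 29.5 and 43.1 CPM in tdTneg CD49f+CD34+ cells, and 134, 97.8 and 107 CPM in tdT+ and 66.6 and 28.1 CPM in tdTneg CD49f+CD34+SCA-1+ cells. The tdT+ CD49f+CD34+SCA-1+ libraries were above all others for Ccl27a, with a log2 fold change of tdT+ over tdTneg of 1.25 ± 0.42 (SE, adjusted p = 0.179) by edgeR, whereas DESeq2 called it at 1.22 and an adjusted p of 0.0319. Cx3cl1, a membrane-bound ligand of Cx3cr1, was present in every library, at 19.4, 29.5 and 39.3 CPM in tdT+ and 30.1, 30.6 and 27.5 CPM in tdTneg CD49f+CD34+ cells, and 41.04, 20.95 and 40.4 CPM in tdT+ and 46.1 and 61.7 CPM in tdTneg CD49f+CD34+SCA-1+ cells. Ccl25, a ligand of Ccr9 known from thymus and gut, was low, with 4.03, 2.303 and 5.01 CPM in tdT+ and 4.81, 9.38 and 3.49 CPM in tdTneg CD49f+CD34+ cells, and 4.58, 1.02 and 2.12 CPM in tdT+ and 3.16 and 2.51 CPM in tdTneg CD49f+CD34+SCA-1+ cells. Its groups overlapped except that both tdTneg CD49f+CD34+SCA-1+ libraries were below the 3 tdTneg CD49f+CD34+ libraries.

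The neutrophil attractants Cxcl1, Cxcl2 and Cxcl3 act through Cxcr2. Cxcl2 (ENSMUSG00000058427, chr5:90903871-90905938 on the plus strand) was at 1.77, 9.05 and 3.03 CPM in tdT+ and 2.29, 2.54 and 0.561 CPM in tdTneg CD49f+CD34+ cells, and 5.84, 16.01 and 15.8 CPM in tdT+ and 16.7 and 51.4 CPM in tdTneg CD49f+CD34+SCA-1+ cells. The lowest CD49f+CD34+SCA-1+ library was at 5.84 CPM, and of the CD49f+CD34+ libraries only the one labelled tdT+CD49f+CD34+ replicate 2 exceeded it. The log2 fold change was 2.84 ± 0.57 (SE, adjusted p = 0.00775) as the mean over tdT status and 4.24 ± 0.87 (SE, adjusted p = 0.0233) within tdTneg cells, both called, against 1.44 ± 0.75 (SE, adjusted p = 0.226) within tdT+ cells. Cxcl1 ran from 0.276 to 108 CPM, with 45.9, 72.3 and 0.276 CPM in tdT+ and 7.38, 37.00 and 4.85 CPM in tdTneg CD49f+CD34+ cells, and 8.15, 7.27 and 3.72 CPM in tdT+ and 103 and 108 CPM in tdTneg CD49f+CD34+SCA-1+ cells. Cxcl3 was at 0, 0.9105 and 7.16 CPM in tdT+ and 0.269, 0.502 and 0 CPM in tdTneg CD49f+CD34+ cells, and 1.36, 2.499 and 0.877 CPM in tdT+ and 0.443 and 13.4 CPM in tdTneg CD49f+CD34+SCA-1+ cells. Endothelial markers summed highest in both tdTneg CD49f+CD34+SCA-1+ libraries, and their part in the values of Cxcl1 was not tested. Cxcl1 was highest in the same libraries, followed by 2 tdT+CD49f+CD34+ libraries and tdTneg CD49f+CD34+ replicate 2, whereas Cxcl3 was above 5 CPM in 1 library each of 2 groups. Neither was called. DESeq2 called Cxcl3 within tdTneg cells at 4.82 and an adjusted p of 0.0382.

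Ccl2, Ccl7 and Ccl8 are ligands of Ccr2 and related receptors that attract monocytes. Ccl2 was at 25.2, 21.3 and 3.91 CPM in tdT+ and 14.3, 10.2 and 9.05 CPM in tdTneg CD49f+CD34+ cells, and 14.9, 21.5 and 8.46 CPM in tdT+ and 34.8 and 69.6 CPM in tdTneg CD49f+CD34+SCA-1+ cells. For Ccl7 the values were 11.8, 11.9 and 2.700 CPM in tdT+ and 6.74, 5.68 and 5.22 CPM in tdTneg CD49f+CD34+ cells, and 5.17, 11.8 and 9.24 CPM in tdT+ and 13.1 and 49.3 CPM in tdTneg CD49f+CD34+SCA-1+ cells. Ccl8 was near 0 in most libraries, with 0, 2.14 and 0 CPM in tdT+ and 0.124, 0.291 and 0 CPM in tdTneg CD49f+CD34+ cells, and 0.453, 12.1 and 1.497 CPM in tdT+ and 1.04 and 13.7 CPM in tdTneg CD49f+CD34+SCA-1+ cells. Both tdTneg CD49f+CD34+SCA-1+ libraries were above the 3 tdTneg CD49f+CD34+ libraries for all 3 genes, as for 28 of the 45 tested members. The share over all genes was not computed for this comparison. The adjusted p of edgeR missed the threshold. The log2 fold change was 2.22 ± 0.65 (SE, adjusted p = 0.0807) for Ccl2 and 2.41 ± 0.67 (SE, adjusted p = 0.0666) for Ccl7. Both were called by DESeq2 (adjusted p = 0.00331 and 0.00221), and by edgeR without a filter (0.00911 and 0.0094) and on omission of tdT+CD49f+CD34+ replicate 3 (0.0135 and 0.0237), and Ccl2 also with only the groups compared (0.022). As the mean over tdT status Ccl8 was at 4.20 ± 1.48 (SE, adjusted p = 0.0726) and was not called. It was called by DESeq2 (adjusted p = 0.0458), without a filter (0.0116), with the replicate number as a block (4.04 and 0.0203) and without tdT+CD49f+CD34+ replicate 2 (7.91 and 0.0227). Ccl6 and Ccl9, 2 C-C ligands of mouse macrophages and dendritic cells that bind Ccr1, were at 7.02, 20.1 and 0.2204 CPM in tdT+ and 0.558, 6.29 and 0.0488 CPM in tdTneg CD49f+CD34+ cells, and 5.06, 10.9 and 13.2 CPM in tdT+ and 7.82 and 78.4 CPM in tdTneg CD49f+CD34+SCA-1+ cells and, in the same order, at 13.5, 27.9 and 0.0551 CPM in tdT+ and 0.661, 5.95 and 0.0732 CPM in tdTneg CD49f+CD34+ cells, and 3.597, 14.03 and 8.98 CPM in tdT+ and 9.24 and 67.3 CPM in tdTneg CD49f+CD34+SCA-1+ cells. The same libraries were high for both, with tdTneg CD49f+CD34+SCA-1+ replicate 2 highest, and this library also had the highest sum of macrophage and mast cell markers (763 CPM). The part of these markers was not tested.

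Ccl3, Ccl4 and Ccl5 are made by activated lymphocytes, macrophages and Langerhans cells. Ccl5 (ENSMUSG00000035042, chr11:83525778-83530518 on the minus strand) stood at 0.725, 1.82 and 1.54 CPM in tdT+ and 0.103, 0.317 and 0.0244 CPM in tdTneg CD49f+CD34+ cells, and 5.78, 3.92 and 22.2 CPM in tdT+ and 3.42 and 2.68 CPM in tdTneg CD49f+CD34+SCA-1+ cells. Every SCA-1+ library was above every CD49f+CD34+ library, and within each population all tdT+ libraries were above all tdTneg ones. Between the populations it differed with a log2 fold change of 3.65 ± 0.66 (SE, adjusted p = 0.00443) as the mean, 4.34 ± 0.98 (SE, adjusted p = 0.03297) within tdTneg and 2.96 ± 0.87 (SE, adjusted p = 0.0531) within tdT+ cells, the last being just beyond the threshold and called by DESeq2 (adjusted p = 0.00217). By edgeR it was also called within tdT+ cells without a filter (0.0187) and with the stricter filter (0.0423). Omission of tdTnegCD49f+CD34+ replicate 2 or 3 (0.0275 and 0.0421) or of tdT+CD49f+CD34+SCA-1+ replicate 2 (0.0492) gave this call too. The call within tdTneg cells was lost in 4 of 17 alternatives. Ccl4 (ENSMUSG00000018930, chr11:83662584-83664683 on the plus strand) was at 0.861, 3.11 and 0 CPM in tdT+ and 0.06199, 0.449 and 0.122 CPM in tdTneg CD49f+CD34+ cells, and 3.14, 3.41 and 5.21 CPM in tdT+ and 1.804 and 8.21 CPM in tdTneg CD49f+CD34+SCA-1+ cells. It was called between the populations at 3.06 ± 0.96 (SE, adjusted p = 0.0493), but the call was lost in 8 of 11 omissions of a library, with adjusted p from 0.0713 to 0.215, namely without any 1 of tdT+CD49f+CD34+ replicate 1, tdTnegCD49f+CD34+ replicates 1 and 3, and the 5 SCA-1+ libraries. Ccl3 (ENSMUSG00000000982, chr11:83647844-83649355 on the minus strand) was at 0.861, 3.59 and 1.32 CPM in tdT+ and 0.455, 0.396 and 0.146 CPM in tdTneg CD49f+CD34+ cells, and 1.36, 0.738 and 0.929 CPM in tdT+ and 2.75 and 8.796 CPM in tdTneg CD49f+CD34+SCA-1+ cells. This gene was called within tdTneg cells, with 4.10 ± 0.83 (SE, adjusted p = 0.0221) against −0.92 ± 0.72 (SE, adjusted p = 0.419) within tdT+ cells. The edgeR test of the difference between these effects gave −5.02 ± 1.09 (SE, adjusted p = 0.0881) and was not called. The same difference was called by DESeq2, at −5.15 and an adjusted p of 0.00049, and by edgeR without a filter, at −5.10 and 0.025.

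Cxcl9 and Cxcl10, the interferon-induced ligands of Cxcr3, were measured at 15.95, 7.87 and 2.53 CPM in tdT+ and 7.996, 7.16 and 2.76 CPM in tdTneg CD49f+CD34+ cells, and 9.49, 1.76 and 8.41 CPM in tdT+ and 23.95 and 11.5 CPM in tdTneg CD49f+CD34+SCA-1+ cells for Cxcl9. Cxcl10 was at 18.5, 13.7 and 15.2 CPM in tdT+ and 11.2, 6.45 and 3.66 CPM in tdTneg CD49f+CD34+ cells, and 28.8, 6.93 and 45.3 CPM in tdT+ and 38.95 and 18.2 CPM in tdTneg CD49f+CD34+SCA-1+ cells. Neither gene was called. Alternatives called Cxcl10, namely DESeq2 as the mean and within tdTneg cells (1.41 and 2.09, adjusted p = 0.00641 and 0.0114), edgeR without a filter in both, edgeR with the stricter filter as the mean, and 2 omissions (tdTnegCD49f+CD34+ replicate 1 and tdT+CD49f+CD34+SCA-1+ replicate 2). The groups overlapped except that both genes were higher in the 2 tdTneg CD49f+CD34+SCA-1+ than in the 3 tdTneg CD49f+CD34+ libraries, Cxcl10 was higher in tdT+ than in tdTneg CD49f+CD34+ libraries and Cxcl9 was lower in tdT+ than in tdTneg CD49f+CD34+SCA-1+ libraries. Ccl20 (ENSMUSG00000026166, chr1:83116766-83119167 on the plus strand), the ligand of Ccr6 that attracts Langerhans cell precursors and IL-17 producing T cells, was at 1.54, 3.16 and 0.331 CPM in tdT+ and 0.682, 0.238 and 0.293 CPM in tdTneg CD49f+CD34+ cells, and 3.304, 8.06 and 2.99 CPM in tdT+ and 2.66 and 2.18 CPM in tdTneg CD49f+CD34+SCA-1+ cells. It was called as the mean over tdT status with 2.04 ± 0.58 (SE, adjusted p = 0.0371). Omission of any 1 of 7 libraries (tdT+CD49f+CD34+ replicate 1, tdTnegCD49f+CD34+ replicates 2 and 3, tdT+CD49f+CD34+SCA-1+ replicates 1 and 2, and both tdTnegCD49f+CD34+SCA-1+ libraries) ended this call, with adjusted p from 0.0512 to 0.133.

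**Figure D4:**
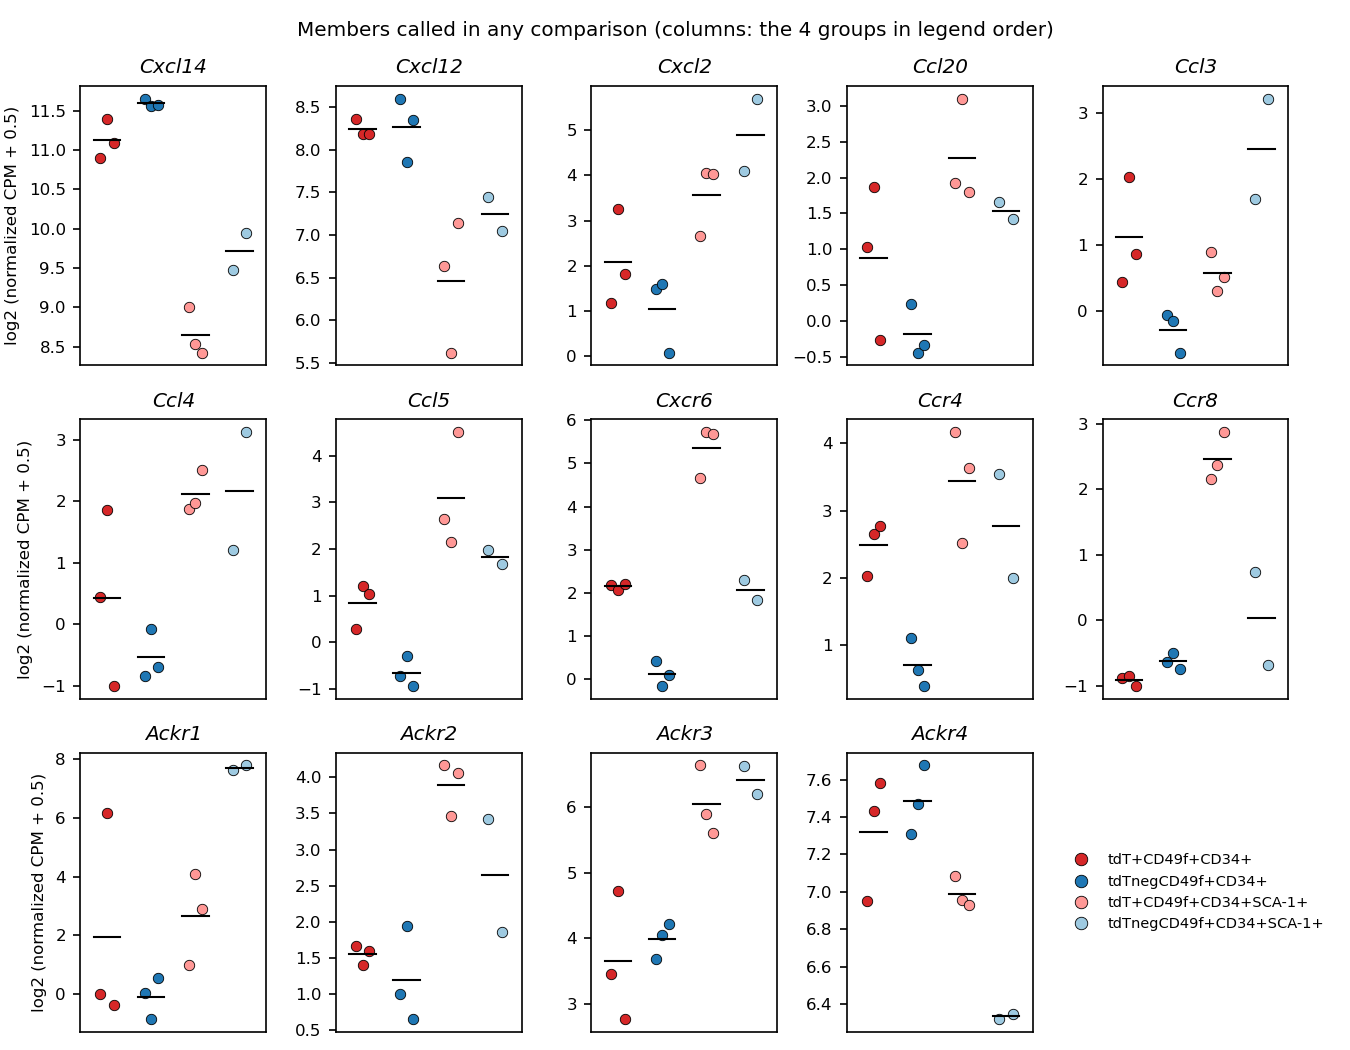
Level, as log2 of normalized CPM + 0.5, of the 14 members called in at least 1 comparison, with 1 point per library, a line at the mean of each group and the 4 groups in the order of the legend. Each panel has its own axis. Cxcl14 and Cxcl12 are lower in both SCA-1+ groups, Cxcr6 is higher in tdT+ cells of both populations, and Ackr1 is at 197 and 221 CPM in the tdTnegCD49f+CD34+SCA-1+ libraries.

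Among the receptors, Cxcr6 (ENSMUSG00000048521, chr9:123806475-123811760 on the plus strand), which binds Cxcl16 and marks resident memory T cells, NKT cells and gamma delta T cells, showed the clearest order of groups. It was at 4.03, 3.696 and 4.13 CPM in tdT+ and 0.847, 0.396 and 0.561 CPM in tdTneg CD49f+CD34+ cells, and 24.8, 52.4 and 51.1 CPM in tdT+ and 4.398 and 3.06 CPM in tdTneg CD49f+CD34+SCA-1+ cells. No 2 groups overlapped except tdT+ CD49f+CD34+ and tdTneg CD49f+CD34+SCA-1+ cells. Cxcr6 rose in CD49f+CD34+SCA-1+ cells, with a log2 fold change of 3.03 ± 0.28 (SE, adjusted p = 0.000183) as the mean over tdT status, 3.43 ± 0.38 (SE, adjusted p = 0.000674) within tdT+ and 2.62 ± 0.40 (SE, adjusted p = 0.009200) within tdTneg cells. Between tdT+ and tdTneg CD49f+CD34+SCA-1+ cells, edgeR with RLE size factors or the stricter filter called Cxcl14 and Cxcr6. In the fit defined at first Cxcr6 was called alone of the members between tdT+ and tdTneg cells, with 3.52 ± 0.45 (SE, adjusted p = 0.00368) in CD49f+CD34+SCA-1+ cells. Without tdTnegCD49f+CD34+SCA-1+ replicate 2 this call was lost, at 3.23 and an adjusted p of 0.0666, and without replicate 1 of that group the call within tdTneg cells was lost, at 2.32 and 0.0835. In CD49f+CD34+ cells the log2 fold change of tdT+ over tdTneg was 2.70 ± 0.38 (SE, adjusted p = 0.0589), just beyond the threshold. It was called by DESeq2 (adjusted p = 1.44e-08), without a filter (0.00127), with the stricter filter (0.0461) and on omission of tdT+CD49f+CD34+SCA-1+ replicate 1 (0.0448).

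Ccr8 (ENSMUSG00000042262, chr9:120092114-120094906 on the plus strand), a receptor of skin-resident and regulatory T cells for Ccl1 and mouse Ccl8, was at 0.0453, 0.0536 and 0 CPM in tdT+ and 0.145, 0.211 and 0.0976 CPM in tdTneg CD49f+CD34+ cells, and 3.94, 4.66 and 6.81 CPM in tdT+ and 1.17 and 0.126 CPM in tdTneg CD49f+CD34+SCA-1+ cells. All 3 tdT+ CD49f+CD34+SCA-1+ libraries were above all others, and tdTneg CD49f+CD34+SCA-1+ replicate 2 lay within the CD49f+CD34+ range. Only 2 counts stood against 362 counts between the populations within tdT+ cells, a ratio of 143 with an exact 95% interval of 39.3 to 1186 that covers counting error alone, at an adjusted p of 0.00314. The log2 fold change was 4.58 ± 0.70 (SE, adjusted p = 0.00182) as the mean over tdT status and 2.08 ± 0.89 (SE, adjusted p = 0.215) within tdTneg cells, which was not called. Ccr8 passed the filter through the tdT+ CD49f+CD34+SCA-1+ libraries, with 148, 82 and 132 counts, the group in which it is high. It did not pass the stricter filter. Ccr4 (ENSMUSG00000047898, chr9:114490316-114504916 on the minus strand), the skin-homing receptor for Ccl17 and Ccl22, was at 3.58, 5.78 and 6.34 CPM in tdT+ and 1.63, 1.03 and 0.805 CPM in tdTneg CD49f+CD34+ cells, and 17.5, 5.22 and 11.9 CPM in tdT+ and 11.1 and 3.48 CPM in tdTneg CD49f+CD34+SCA-1+ cells. It was called as the mean with 1.90 ± 0.42 (SE, adjusted p = 0.0119) and within tdTneg cells with 2.66 ± 0.62 (SE, adjusted p = 0.03701). The first call was lost without tdTnegCD49f+CD34+SCA-1+ replicate 1, at 1.36 and an adjusted p of 0.0923, and the second with the replicate number as a block, at 2.51 and 0.0521, with only the groups compared, at 2.72 and 0.0519, and without any 1 of the 3 tdTnegCD49f+CD34+ libraries, tdT+CD49f+CD34+SCA-1+ replicate 3 and tdTnegCD49f+CD34+SCA-1+ replicate 1, with adjusted p from 0.0572 to 0.443.

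The T cell markers and these receptors had partly the same calls. All 10 T cell markers rose between the populations within tdT+ cells and as the mean over tdT status, 8 of 10 rose within tdTneg cells, and 5 of 10 (Cd2, Trbc2, Trac, Cd3d and Cd3e) were higher in tdT+ than in tdTneg CD49f+CD34+SCA-1+ cells. Cd3e, a subunit of the T cell receptor complex, was at 3.49 to 7.87 CPM in tdT+ and 0.317 to 0.829 CPM in tdTneg CD49f+CD34+ cells, and at 47.1 to 117 CPM and 9.78 and 12.6 CPM in the SCA-1+ groups. No library was at 0 for Cd3e. Of the receptors only Cxcr6 was called in each of these 4 comparisons, while Ccr4 was not within tdT+ cells, Ccr8 was not within tdTneg cells, and neither was between tdT+ and tdTneg CD49f+CD34+SCA-1+ cells. The part of T cells in the values of Cxcr6, Ccr8, Ccr4 and Ccl5 was not tested.

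Cxcr4, the signalling receptor of Cxcl12, was at 14.8, 11.1 and 23.8 CPM in tdT+ and 11.5, 6.11 and 11.4 CPM in tdTneg CD49f+CD34+ cells, and 5.84, 7.38 and 8.103 CPM in tdT+ and 7.44 and 16.5 CPM in tdTneg CD49f+CD34+SCA-1+ cells. It was lower in each tdT+ CD49f+CD34+SCA-1+ than in each tdT+ CD49f+CD34+ library, at −1.22 ± 0.41 (SE, adjusted p = 0.0774), which edgeR did not call and DESeq2 did, at −1.25 and an adjusted p of 0.016. The myeloid receptors Ccr1 and Ccr2 and the fractalkine receptor Cx3cr1 varied within groups. Ccr1 was at 1.72, 2.68 and 0 CPM in tdT+ and 0.434, 0.925 and 0 CPM in tdTneg CD49f+CD34+ cells, and 1.79, 5.05 and 4.13 CPM in tdT+ and 1.68 and 15.1 CPM in tdTneg CD49f+CD34+SCA-1+ cells. Ccr2, the monocyte receptor of Ccl2, was at 9.02, 14.7 and 1.05 CPM in tdT+ and 0.289, 1.88 and 0.0976 CPM in tdTneg CD49f+CD34+ cells, and 4.72, 3.29 and 5.32 CPM in tdT+ and 3.01 and 26.5 CPM in tdTneg CD49f+CD34+SCA-1+ cells. Low values of Ccr1 and Ccr2 came from tdT+CD49f+CD34+ replicate 3 and from tdTneg CD49f+CD34+ replicates 1 and 3. In these libraries macrophage and mast cell markers summed to 2.10 to 4.92 CPM, and the part of these markers was not tested. Cx3cr1, a receptor of macrophages and of Langerhans cell precursors, was at 1.04, 12.5 and 0.165 CPM in tdT+ and 0.331, 0.819 and 0.293 CPM in tdTneg CD49f+CD34+ cells, and 7.67, 13.97 and 16.1 CPM in tdT+ and 3.77 and 6.41 CPM in tdTneg CD49f+CD34+SCA-1+ cells. None of the 3 was called. DESeq2 called all 3 within tdTneg cells and Ccr1 and Cx3cr1 as the mean, and edgeR without a filter called Ccr2 and Cx3cr1 within tdTneg cells and Ccr1 as the mean. Without tdTnegCD49f+CD34+ replicate 2 Ccr2 was called in both. For Cx3cr1 the edgeR value as the mean was 2.43 ± 0.84 (SE, adjusted p = 0.0692), and it was called with the replicate number as a block (2.90 and an adjusted p of 0.0301), without a filter (0.015), without tdT+CD49f+CD34+ replicate 2 (3.87 and 0.00273) and without replicate 3 of that group (2.14 and 0.0448). Omission of replicate 2 also gave calls of Cx3cr1 within tdT+ (4.35 and 0.018) and within tdTneg cells (3.39 and 0.0336), as did a fit of only the groups compared within tdTneg cells. The highest value of Ccr1 and of Ccr2 was in tdTneg CD49f+CD34+SCA-1+ replicate 2. Of the 6 tested macrophage markers edgeR and DESeq2 called 0 between the populations as the mean, with 0 at an unadjusted p under 0.05. Within tdTneg cells DESeq2 called 1, Lyz2, and 2 had an unadjusted p under 0.05 by edgeR, with a median log2 fold change of 3.36. The sums of this list overlapped between all groups.

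The 4 atypical receptors differed from each other in pattern. Ackr3 (ENSMUSG00000044337, chr1:90203980-90216751 on the plus strand), which takes up Cxcl12, stood at 10.5, 25.9 and 6.28 CPM in tdT+ and 12.3, 16.1 and 18.2 CPM in tdTneg CD49f+CD34+ cells, and 99.4, 59.5 and 48.4 CPM in tdT+ and 99.2 and 73.5 CPM in tdTneg CD49f+CD34+SCA-1+ cells. Every SCA-1+ library was above every CD49f+CD34+ library, with a log2 fold change of 2.38 ± 0.35 (SE, adjusted p = 0.00153) as the mean, 2.28 ± 0.48 (SE, adjusted p = 0.0136) within tdT+ and 2.48 ± 0.51 (SE, adjusted p = 0.0233) within tdTneg cells. The call within tdTneg cells was lost with the replicate number as a block, at 2.25 and an adjusted p of 0.0573, and the call within tdT+ cells was lost without tdT+CD49f+CD34+ replicate 1, at 2.10 and 0.0552. So Ackr3 and its ligand Cxcl12 were called in opposite directions within tdT+ cells and as the mean over tdT status. Ackr2 (ENSMUSG00000044534, chr9:121898355-121911074 on the plus strand), which removes inflammatory C-C chemokines, was at 2.67, 2.14 and 2.53 CPM in tdT+ and 1.51, 3.36 and 1.07 CPM in tdTneg CD49f+CD34+ cells, and 17.4, 10.6 and 16.1 CPM in tdT+ and 10.3 and 3.14 CPM in tdTneg CD49f+CD34+SCA-1+ cells. It rose with a log2 fold change of 2.17 ± 0.40 (SE, adjusted p = 0.004702) as the mean and 2.58 ± 0.55 (SE, adjusted p = 0.0145) within tdT+ cells, and was at 1.76 ± 0.57 (SE, adjusted p = 0.111) by edgeR within tdTneg cells, which DESeq2 called (adjusted p = 0.0193) and where tdTneg CD49f+CD34+SCA-1+ replicate 2 lay in the CD49f+CD34+ range.

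Ackr4 (ENSMUSG00000079355, chr9:104084157-104126933 on the minus strand), which removes Ccl19, Ccl21 and Ccl25 and is known from keratinocytes, was the most even of them, at 123, 172 and 191 CPM in tdT+ and 158, 177 and 204 CPM in tdTneg CD49f+CD34+ cells, and 135, 124 and 121 CPM in tdT+ and 79.3 and 81.05 CPM in tdTneg CD49f+CD34+SCA-1+ cells. It fell within tdTneg cells with −1.16 ± 0.19 (SE, adjusted p = 0.0114) and had an adjusted p under the threshold but a smaller change as the mean, with −0.76 ± 0.13 (SE, adjusted p = 0.00297). Without either tdTnegCD49f+CD34+SCA-1+ library the call within tdTneg cells was lost, with adjusted p of 0.121 and 0.0892. Ackr1 (ENSMUSG00000037872, chr1:173331886-173333750 on the minus strand), known from venular endothelium and red cells, was at 0.499, 71.3 and 0.276 CPM in tdT+ and 0.537, 0.0529 and 0.951 CPM in tdTneg CD49f+CD34+ cells, and 1.49, 16.4 and 6.97 CPM in tdT+ and 197 and 221 CPM in tdTneg CD49f+CD34+SCA-1+ cells. Both tdTneg CD49f+CD34+SCA-1+ libraries were above all others. The log2 fold change within tdTneg cells was 8.64 ± 2.19 (SE, adjusted p = 0.0486). This call was lost with the replicate number as a block, at 8.52 and an adjusted p of 0.0684, and in 8 of 11 omissions, with adjusted p from 0.0602 to 0.176, that is without any 1 of the tdTneg libraries or of the tdT+CD49f+CD34+SCA-1+ libraries. The next highest value of Ackr1, 71.3 CPM, was in the one labelled tdT+CD49f+CD34+ replicate 2, and without it the log2 fold change as the mean was 6.51 and called, against 3.55 ± 1.25 (SE, adjusted p = 0.0735) with it. With all libraries but no filter on low counts the mean was also called, at 3.50 and an adjusted p of 0.00716. The endothelial markers Pecam1 and Cdh5 had their 3 highest values in the same 3 libraries, with 175, 688 and 728 CPM for Pecam1 and 87.4, 364 and 421 CPM for Cdh5, and the part of endothelial cells was not tested.

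**Figure D5:**
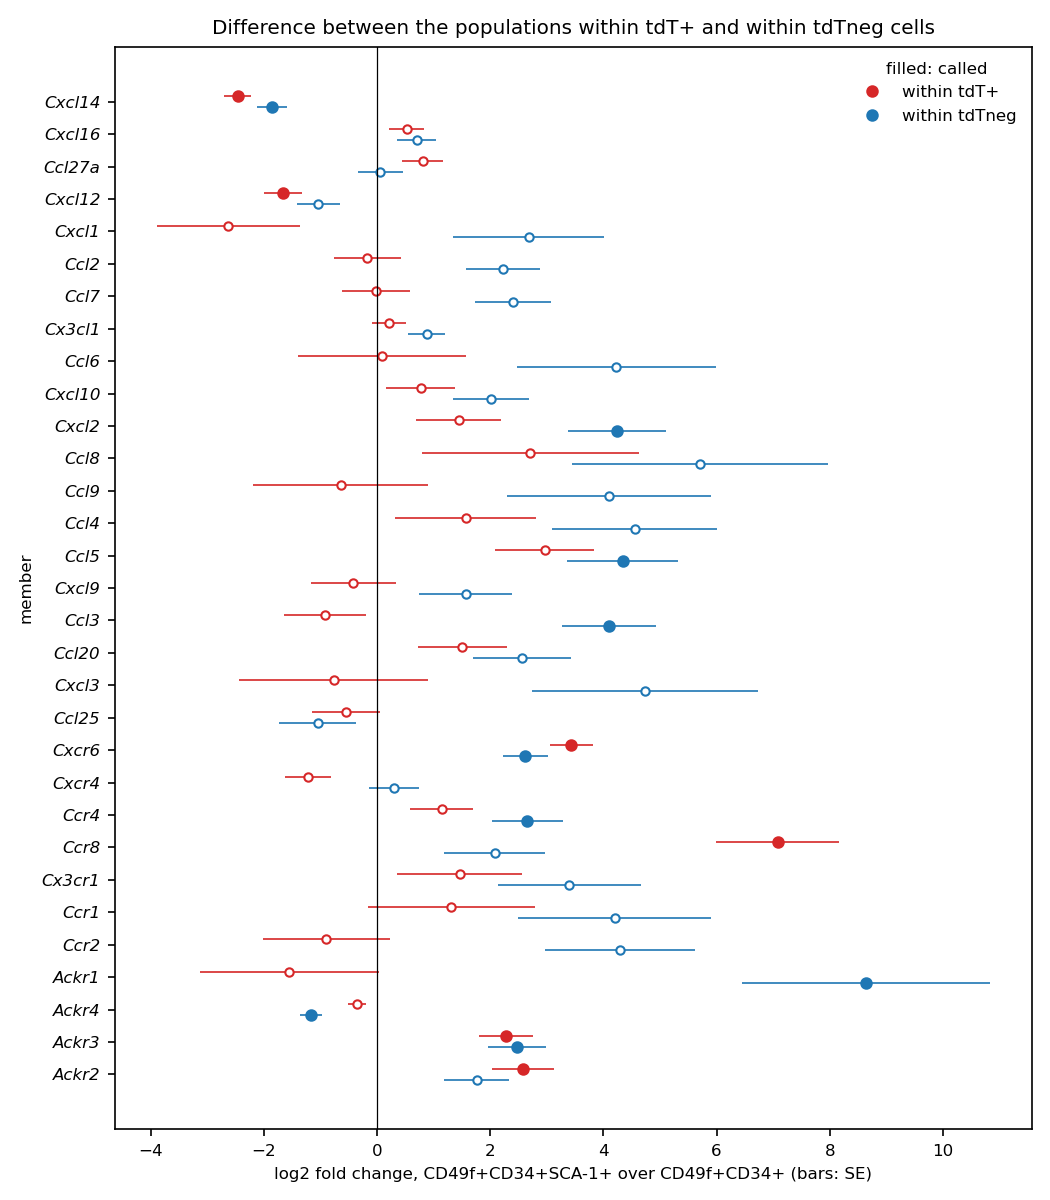
Log2 fold change of CD49f+CD34+SCA-1+ over CD49f+CD34+ cells within tdT+ (red) and within tdTneg cells (blue) for 30 of the 31 expressed members and Ccl20, with bars of 1 SE and filled points for called members. Cxcl14, Cxcr6 and Ackr3 are called on both sides, and Ccr8, Ackr2 and Cxcl12 within tdT+ cells alone. With the filter on low counts and all libraries, edgeR called no difference between both colours.

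Within tdT+ cells 6 of 45 members were called between the populations, 4 higher and 2 lower, against 8.45% of all tested genes (9 and 15.5% by DESeq2), and the median log2 fold change was 0.22. Higher were Cxcr6, Ccr8, Ackr2 and Ackr3, and lower were Cxcl14 and Cxcl12. Within tdTneg cells 9 of 45 were called, 7 higher and 2 lower, against 4.74% of all tested genes (18 and 10.2% by DESeq2), with a median of 2.56. Higher were Cxcl2, Ccl3, Ccl5, Cxcr6, Ccr4, Ackr1 and Ackr3, and lower were Cxcl14 and Ackr4. None was left without tdTnegCD49f+CD34+SCA-1+ replicate 1 and 3 without replicate 2 (Cxcl14, Cxcr6 and Ccr4), and 3 without tdTnegCD49f+CD34+ replicate 1 or 3 (Cxcl14, Cxcr6 and Ackr4). The lone library left in a group is then assumed to vary like the other groups.

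The question whether cells with and without tdT differ in the chemokine system had few calls. In CD49f+CD34+ cells none of the 45 members was called by edgeR, 8 had an unadjusted p under 0.05 (1709 of all 20307 genes), and edgeR called 0.00985% of all tested genes. DESeq2 called 5, namely Cxcr6, Ccr4, Ccr2, Ccl3 and Ccl5, against 1.63% of all tested genes. The median log2 fold change of the members was 1.27 and 38 were above 0, against a median of −0.03 over all genes. In CD49f+CD34+SCA-1+ cells Cxcr6 was the only member called by edgeR in the fit defined at first. There 12 members had an unadjusted p under 0.05 (2963 of all 20307 genes), and 2.31% of all tested genes were called. RLE size factors and the stricter filter also called Cxcl14. DESeq2 called 7, namely Cxcr6, Ccr8, Cxcr3, Ccl2, Ccl3, Ccl27a and Cxcl14, against 5.54% of all tested genes. Here the median of the members was −0.49. The largest differences of expressed members that edgeR did not call included −4.67 ± 1.84 (SE, adjusted p = 0.271) for Ackr1, −4.04 ± 1.40 (SE, adjusted p = 0.201) for Cxcl1, −2.50 ± 0.79 (SE, adjusted p = 0.156) for Ccl3 and 2.97 ± 0.99 (SE, adjusted p = 0.179) for Ccr8. Without tdT+CD49f+CD34+ replicate 3 Cxcl1 and Ccl2 were called as well. Ackr1 was called when the one labelled tdT+CD49f+CD34+ replicate 2 was omitted, and Ackr1 and Cxcl1 were called without a filter (adjusted p = 0.0448 and 0.0176) and with only the groups compared (0.0127 and 0.000422).

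The difference between both populations in the effect of tdT was called for no member by edgeR, against 0.389% of all tested genes, while 12 had an unadjusted p under 0.05 (2517 of all 20307 genes). DESeq2 called 3 (Ccl3, Ccr2 and Ccr8), against 3.83% of all tested genes. Without a filter edgeR called 4 (Ackr1, Ccl3, Ccr2 and Cxcl1), a count with no share over all genes given. The median log2 difference was −1.51, with 38 members below 0. It was called for Ackr1, Ccl2 and Cxcl1 without tdT+CD49f+CD34+ replicate 3, a library in which endothelial markers summed to 5.12 CPM and macrophage and mast cell markers to 2.81 CPM. These comparisons share libraries with those between the populations.

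Ligands and their known receptors were set side by side per kilobase of exon. In tdT+ CD49f+CD34+SCA-1+ cells Cxcl16 was at 49.1 and its receptor Cxcr6 at 22.2 CPM per kilobase, and in tdTneg CD49f+CD34+ cells at 22.8 and 0.312. Cxcl12 was at 37.1 and 38.5 CPM per kilobase in tdT+ and tdTneg CD49f+CD34+ cells, where Cxcr4 was at 9.16 and 5.35 and Ackr3 at 4.25 and 4.63. In the SCA-1+ groups Ackr3 was at 20.6 and 25.8, and Cxcl12 at 11.8 and 18.7. Other pairs were one-sided. Ccr10, the receptor of Ccl27a, had a highest group mean of 2.99 CPM, Cxcr2, the receptor of Cxcl1, Cxcl2 and Cxcl3, of 1.43 CPM, Cxcr3 of 3.68 CPM and Ccr6 of 1.06 CPM. Of the Ccr4 ligands Ccl22 reached 1.96 CPM, and Ccl17 had 1 count in all 11 libraries together.

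The 33 members under 5 CPM included 14 that passed the filter on low counts, namely Ccl20, Ccl24, Ccr9, Cxcr3, Ccr10, Ccl1, Cxcl13, Ccl22, Ccl12, Cxcr2, Ccr6, Ccl11, Ccl28 and Ccr7. Of these only Ccl20 was called. Alternatives called Cxcr3, Ccl11 and Ccr7 as well. DESeq2 called these 3 as the mean, and Cxcr3 within tdT+ cells and between tdT+ and tdTneg CD49f+CD34+SCA-1+ cells. By edgeR Cxcr3 was called without a filter, as the mean and within tdT+ cells. A fit of only the groups compared called Cxcr3 within tdT+ and Ccl11 within tdTneg cells, and the omission of tdT+CD49f+CD34+SCA-1+ replicate 3 called Ccl11 and Ccr7 as the mean. Ccr9, Ccl1, Cxcl13, Ccr6 and Ccl28 had their highest group mean, 0.979 to 3.71 CPM, in tdT+ CD49f+CD34+ cells. Among the 19 that did not pass, Cxcl5 had 54 counts over all libraries, Cxcr1 53 and Cxcl17 47. No count was found for 10 members, and 3 counts over all 11 libraries, the limit that a count of 0 allows, correspond to 0.00949 CPM. These 10 were 6 of 7 genes on unplaced scaffolds and Ccl21a, Ccl21b, Ccl27b and Ccl26. The copies of Ccl19, Ccl21 and Ccl27 on chromosome 4 and the scaffolds are near-identical, so the counting may have left out their reads and 0 is uncertain for them.

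Other genes of the chemokine system were taken from 3 lists. In the mean over tdT status 4.77% of all tested genes were called higher and 6.79% lower between the populations. Of 10 genes outside the symbol rule, Xcl1, Cmklr1 and Ccrl2 rose in this mean, with log2 fold changes of 3.05, 3.13 and 1.40. Within tdT+ cells the calls were Xcl1 and Pitpnm3, at 3.44 and 1.27, and within tdTneg cells Ccrl2, at 1.83. Xcl1, a ligand made by activated T cells, was also the only one called between tdT+ and tdTneg CD49f+CD34+SCA-1+ cells, at 3.77, and was at 12.2 to 23.7 CPM in tdT+ and 1.26 and 1.49 CPM in tdTneg libraries. Of 14 genes of receptor signalling, Gnai1, Arrb1 and Ptk2b rose in the mean, with log2 fold changes of 1.44, 1.04 and 1.08. Within tdT+ cells Gnai1 and Ptk2b rose and Grk5 fell, with a log2 fold change of −1.11, and Arrb1 was at −0.07 and not called. Within tdTneg cells Gnai1, Arrb1, Elmo1 and Grk5 rose, at 1.20, 2.14, 1.61 and 1.30. Arrb1, a beta-arrestin, and Grk5, a receptor kinase, were lower in tdT+ than in tdTneg CD49f+CD34+SCA-1+ cells, with log2 fold changes of −1.45 and −2.52, as was Elmo1, an adaptor of cell migration, with −1.66. Of 16 genes of NF-kB signalling and inducers of chemokines, Tnf, Tnfaip3, Il1b, Rel and Nfkbiz rose in the mean, with 2.95, 2.16, 1.83, 1.09 and 1.07. Of these Il1b was not called within tdT+ cells, at 0.60, nor Rel within tdTneg cells. The median log2 fold change in the 3 lists was 0.46, 0.54 and 0.65, against −0.09 over all genes. Of the 10 genes of the dissociation response edgeR and DESeq2 called 0 between the populations, with 1 at an unadjusted p under 0.05.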

How the data were processed

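RNA of sorted epidermal cells was measured in 11 libraries. The deposited values are raw counts per gene. The authors demultiplexed with bcl2fastq 2.20.0.422 and, per their methods, aligned with STAR to mm10 and counted with featureCounts on Ensembl 96. The kit did not mark strand. Symbols and positions were taken from the matching GENCODE annotation on GRCm38, and groups from the sample titles. The row outside the Ensembl genes (0.000205 to 0.0307% of counts) was left out of totals and tests.

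Counts were analysed with edgeR 4.0.16 in R 4.3.3 (TMM, filterByExpr, glmQLFit and glmQLFTest on all 4 groups without covariates), with Benjamini-Hochberg adjustment over 20307 genes, and with DESeq2 1.42.0 as an alternative. A gene was called at an adjusted p under 0.05 if its log2 fold change was beyond 1 in either direction. The authors used DESeq2 1.18.1 with the same limits on adjusted p and fold change. The fit was tested on simulated data. Figures were drawn with Python 3.11.15. Totals of 17409131 to 46542177 counts set the depth, and intervals cover counting error only. Every member at 5 CPM or more and every called member was named, except 1 expressed member that edgeR did not call on all libraries and is not reported here. The members and lists were chosen with earlier results of these data known. The replicate number was read as a pool of mice, since the methods describe 3 biological replicates of 2 mice each, which does not state outright that same-numbered libraries share mice. Deviations from the group means correlated with a median of 0.083 over 15 pairs of the same number (−0.415 to 0.589, 7 above 0.1). Over 30 other pairs the median was −0.023 (−0.602 to 0.513, 2 above 0.1). As the deviations were taken from group means, both sets of pairs are not independent of each other. Other normalization, filters, tool, fold threshold, groups in the fit, a replicate block and the omission of each library were tried.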

Additional observations from a re-analysis of the deposited data

Results flagged for a closer look

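A signal was seen in data that no comparison used, the row outside the Ensembl genes. It held 133 and 252 CPM in tdT+CD49f+CD34+ replicates 1 and 3 and 254, 224 and 307 in tdT+CD49f+CD34+SCA-1+ replicates 1 to 3, above the 2.54 to 4.89 in the tdTneg libraries. The library labelled tdT+CD49f+CD34+ replicate 2 held 2.05.

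For 2 genes of receptor signalling the effect of tdT differed between the populations, by the test of that difference. The log2 difference was −2.21 for Arrb1 and −2.41 for Grk5 (edgeR quasi-likelihood test, both past an adjusted p of 0.05). Arrb1 was at 96.9 to 109 CPM in tdT+ and 53.3 to 69.1 CPM in tdTneg CD49f+CD34+ cells, and at 73.7 to 118 CPM and 244 and 289 CPM in the SCA-1+ groups. Grk5 was at 35.4 and 44.3 CPM in tdTneg CD49f+CD34+SCA-1+ cells and at 5.54 to 17.7 CPM in the others. Endothelial markers were also highest in that group, and their part in these values was not tested.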

How the results depend on the processing

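The 31 members at 5 CPM or more became 43 at 1 CPM and 24 at 10 CPM, and 26 to 32 when single libraries were omitted. The counts of called members moved with the tool, the filter and the omission of single libraries. DESeq2 called 5 members between tdT+ and tdTneg CD49f+CD34+ cells (0 by edgeR), 7 in CD49f+CD34+SCA-1+ cells (1), 21 between the populations (11), 18 within tdTneg cells (9) and 3 for the difference in the effect of tdT (0). Without a filter on low counts these numbers were 1, 4, 18, 16 and 4. Apart from DESeq2, no share over all genes is given for the alternatives. Their counts of members can therefore not be set against calls over all genes. The stricter filter gave 1 and 2 in the first pair, RLE size factors gave 2 in CD49f+CD34+SCA-1+ cells, and a fit of only the groups compared gave 4 there. When each library was omitted in turn, the counts ranged from 0 to 1 and from 0 to 3 between tdT+ and tdTneg cells of each population, from 8 to 15 between the populations, from 5 to 7 within tdT+ cells, from 0 to 13 within tdTneg cells and from 0 to 3 for the difference. With the replicate number as a block, the number of calls was 0, 1, 13, 6, 6 and 0 in the same order. The block ended the calls of Ackr1, Ackr3 and Ccr4 within tdTneg cells, added Ccl8 and Cx3cr1 between the populations (as did DESeq2, no filter and the omission of tdT+CD49f+CD34+ replicate 2) and changed no other call. RLE size factors moved the median of all genes by over 0.1 only for the difference in the effect of tdT, from 0.05 to −0.07. Of 49 single log2 fold changes under all alternatives, 858 values in all, 55 lost a call, 48 gained one and 1 reversed, that of Ccr8 within tdTneg cells (−0.27 to 2.97 over the omissions, reversed without tdTnegCD49f+CD34+SCA-1+ replicate 1). The causes were not tested. Groups held 2 or 3 libraries and many members were low, and a p that misses the threshold does not show that groups are alike.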
